A study of Mus musculus with 4 samples.

Results

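The trunk of E14.5 mouse fetuses was sorted into cells with and without EGFP, and H3K27ac was profiled by ChIP-seq in both fractions. The members described here are the 36231 EGFP+ and 30716 EGFP- peak intervals of the trunk, 66947 of the 142206 intervals in the 4 peak lists of the series. They were chosen by tissue alone, from the labels, and intervals of the 2 trunk lists were then compared at promoters, at distal sites and gene by gene. All fetuses carried the genotype Col2a1-EGFP on the G4 background. They were derived by tetraploid aggregation from embryonic stem cells homozygous for an EGFP sensor with a minimal promoter placed upstream of Col2a1. No fetus without the sensor was included. EGFP therefore reports the regulatory input of Col2a1 and not a cell type as such. The trunk reached from neck to tail, with the internal organs removed, and tissue of several fetuses was pooled before sorting. The EGFP- fraction holds every other cell of that tissue, including muscle, connective tissue, vessels, nerve and skin. There was 1 library a side, so every comparison below is a description of 2 libraries, with no replicate error and no test. Fewer cells of a type and less acetylation per cell cannot be told apart in such bulk lists.

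H3K27ac is an acetylation of histone H3 that nucleosomes carry at active promoters and enhancers, and it is lost where these fall silent. Type II collagen, the product of Col2a1, is the main collagen of cartilage. In chondrocytes SOX9, with SOX5 and SOX6, binds enhancers of the cartilage matrix genes, often at a pair of SOX sites in opposite orientation. In the trunk these cells arise largely from the sclerotome, the part of the somite in which PAX1 and PAX9 act and from which vertebrae and ribs form.

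Examples of the compared regions are shown by sequence, taken from GRCm39 and written on the plus strand. Each of the first 7 is the 201 bases around the summit of the strongest distal interval found in 1 fraction within 100 kb of a gene, with the summit base in capitals. EGFP+ only intervals are shown for Col2a1 (chr15:97946563-97946763, 44.0 kb upstream, in an intron of Senp1), Sox9 (chr11:112589226-112589426, 83.7 kb upstream, intergenic), Acan (chr7:78622039-78622239, 80.8 kb upstream, intergenic) and Pax1 (chr2:147140296-147140496, 66.5 kb upstream, intergenic). EGFP- only intervals are shown for Myod1 (chr7:46002871-46003071, 22.9 kb upstream, intergenic), Cdh5 (chr8:104917800-104918000, 89.7 kb downstream, in an intron of Bean1) and Sox10 (chr15:79086687-79086887, 38.1 kb upstream, intergenic). That of Cdh5 was weak, with 11 reads. Within 100 kb of its canonical start site Sox10 had 5 EGFP+ only and 2 EGFP- only distal intervals. Cdh5 had 2 and 1, and Pax1 had 1 and 1. The nearest protein-coding start sites were those of Senp1, Isg20, Bean1 and Pick1 for the intervals of Col2a1, Acan, Cdh5 and Sox10.
Col2a1: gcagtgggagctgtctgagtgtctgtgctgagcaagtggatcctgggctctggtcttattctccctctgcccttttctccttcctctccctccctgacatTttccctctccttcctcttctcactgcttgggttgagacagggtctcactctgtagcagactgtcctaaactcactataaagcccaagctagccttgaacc
Sox9: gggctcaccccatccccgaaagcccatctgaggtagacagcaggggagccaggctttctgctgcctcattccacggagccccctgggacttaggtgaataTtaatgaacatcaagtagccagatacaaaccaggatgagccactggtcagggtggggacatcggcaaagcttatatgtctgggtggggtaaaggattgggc
Acan: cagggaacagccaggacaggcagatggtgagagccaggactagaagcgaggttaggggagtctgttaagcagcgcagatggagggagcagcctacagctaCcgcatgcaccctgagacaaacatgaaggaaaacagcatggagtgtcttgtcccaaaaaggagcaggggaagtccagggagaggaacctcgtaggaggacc
Pax1: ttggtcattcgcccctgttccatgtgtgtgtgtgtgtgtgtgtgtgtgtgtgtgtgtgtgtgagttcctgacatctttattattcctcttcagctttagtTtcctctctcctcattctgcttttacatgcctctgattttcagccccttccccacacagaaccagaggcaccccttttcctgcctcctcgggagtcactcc
Myod1: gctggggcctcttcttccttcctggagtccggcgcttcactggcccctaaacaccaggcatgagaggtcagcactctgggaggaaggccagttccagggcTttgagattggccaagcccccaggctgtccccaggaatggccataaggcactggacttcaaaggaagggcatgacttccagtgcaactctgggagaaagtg
Cdh5: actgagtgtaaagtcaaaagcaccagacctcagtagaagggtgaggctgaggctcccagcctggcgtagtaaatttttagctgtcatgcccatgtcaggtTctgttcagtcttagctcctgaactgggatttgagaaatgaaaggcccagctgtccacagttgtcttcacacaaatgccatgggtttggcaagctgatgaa
Sox10: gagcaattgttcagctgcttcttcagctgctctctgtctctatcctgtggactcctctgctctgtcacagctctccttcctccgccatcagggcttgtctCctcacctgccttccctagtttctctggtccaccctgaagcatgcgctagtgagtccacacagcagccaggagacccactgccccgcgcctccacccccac

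A second set shows inverted pairs of SOX letters near the summits of the strongest EGFP+ only distal intervals that have one. The pair is ACAANG, then 3 to 5 bases, then CNTTGT, where N is any base, within 250 bases of the summit. The letters of the pair are in capitals. The first lies upstream of Acan (chr7:78621567-78621622), in the interval next to the one shown above and inside its bounds, and 168 bp from its summit. The nearest protein-coding start site to the interval of this first pair is that of Isg20, at 57.5 kb. The others have Gpr37l1 (chr1:135126964-135127019) and Rgs4 (chr1:169554815-169554869) as the nearest protein-coding start sites. The pair near Gpr37l1 lies outside its interval, 195 bp from the summit, and that near Rgs4 lies inside, 10 bp from it. All 3 are intergenic and written on the plus strand of GRCm39.
Acan pair: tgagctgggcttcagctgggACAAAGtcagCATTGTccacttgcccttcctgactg
Gpr37l1 pair: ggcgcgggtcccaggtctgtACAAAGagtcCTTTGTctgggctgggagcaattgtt
Rgs4 pair: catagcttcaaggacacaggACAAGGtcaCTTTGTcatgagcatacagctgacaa

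The authors sampled the same number of reads from each library. The reads at each summit, extended to 200 bp, follow exactly from the deposited fold and -log10 p, and were recovered for 100% of the summits of each list. The median summit held 28 reads in each fraction, and the lowest held 7 reads in EGFP+ and 8 in EGFP- cells. The library-wide background was 1.60 reads per 200 bp in EGFP+ and 1.83 in EGFP- cells. A promoter or site without an interval thus held too few reads for a call, which is not the same as none. The number needed went up with the acetylation around a site, because the peak caller took as background the reads of the surrounding 10 kb in the same library. In EGFP+ cells a call took 7 reads at a background of 1.60 but 56 reads at a background of 35. In EGFP- cells the respective numbers were 8 reads at 1.83 and 57 reads at 35.

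Most promoters were marked in both fractions or in neither. Of 21581 protein-coding genes, 10652 (49.4%) had an interval of each list between 2 kb upstream and 500 bp downstream of a start site, and 9519 had none. An EGFP+ only promoter was found for 695 genes (3.22%) and an EGFP- only promoter for 715 genes (3.31%). For 24 genes on each side the interval also met an interval of the opposite list just outside the window. Without them 671 genes (3.11%) were EGFP+ only and 691 genes (3.2%) EGFP- only. These 4 shares are the background for the gene lists below. Reads given for a promoter are those at its summit of highest -log10 p.

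Cartilage genes stood on the EGFP+ side. Of 45 genes in 4 cartilage lists, 21 (46.7%) had an EGFP+ only promoter, 18 had a promoter marked in both lists, 0 had an EGFP- only promoter and 6 had none. Of 95 genes in the lists for perichondrium and bone, connective tissue, muscle, vessels, blood, nerve and skin, 6 (6.32%) were EGFP+ only and 11 (11.6%) EGFP- only, while 61 had no promoter interval. All 9 housekeeping genes were marked in both. The plot of promoter calls by gene list gives the counts for all 17 lists.

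**Figure D1:**
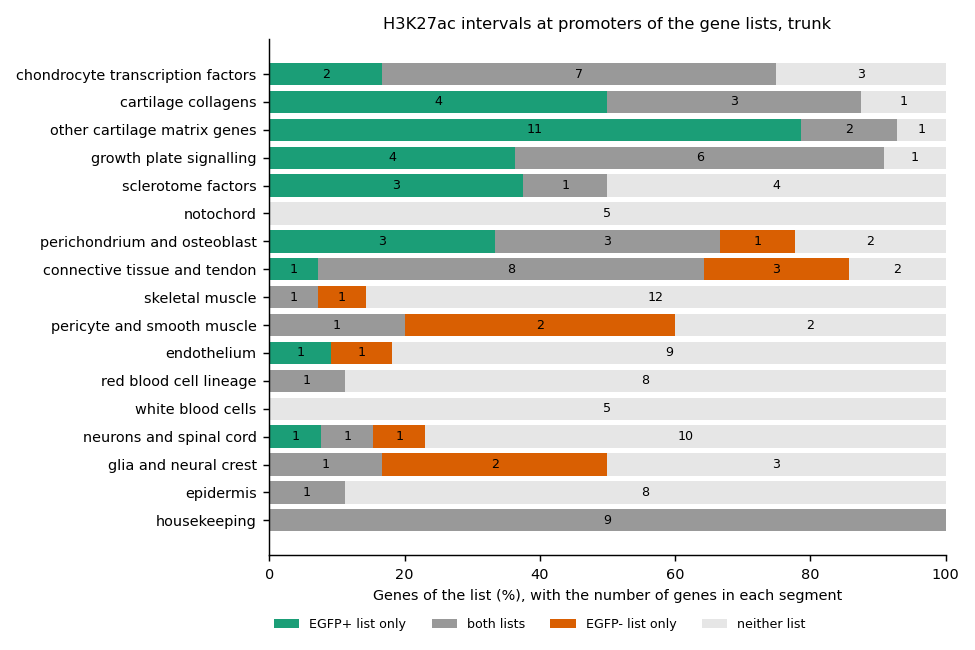
Promoter calls in the trunk by gene list. Each bar is 1 list (y axis) and its segments are the percent of its genes (x axis) with a promoter interval in the EGFP+ list only, in both lists, in the EGFP- list only, or in neither, with the number of genes printed in each segment. Green segments take 11 of the 14 other cartilage matrix genes and 4 of the 8 cartilage collagens, while the blood, skin and notochord lists are mostly unmarked.

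The matrix genes held the largest share. Among 14 cartilage matrix genes other than collagens, 11 (78.6%) had EGFP+ only promoters. Papss2, which makes the sulfate donor for proteoglycans, had 71 reads in EGFP+ cells and no EGFP- interval. Matn4, a matrilin, had 74 reads, and Acan, the large proteoglycan aggrecan of cartilage, had 53 reads. Matn3 had 49 reads, Comp 36, Chad 50, Cnmd 44, Snorc 34, Matn1 22 and Epyc 19. Chst11, a chondroitin sulfotransferase, had 54 reads, but it was 1 of the 24 genes with an opposite interval just outside the window. Hapln1, the link protein, was marked in both fractions with 61 against 17 reads, and so was Xylt1, which starts proteoglycan sugar chains, with 39 against 34. Ucma was unmarked at its promoter.

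Cartilage collagens followed. Col2a1 itself had 84 reads at its promoter in EGFP+ cells and no EGFP- interval. The cells were sorted on a sensor at this locus, so its calls, here and at distal sites below, are not independent of the sort. In the limb the Col2a1 promoter was marked in both fractions. Col9a1 had 60 reads, Col9a3 77 and Col11a2 68, each without an EGFP- interval. Col9a2, Col11a1 and Col27a1 were marked in both, with 90 against 12, 69 against 21 and 64 against 28 reads. Col10a1, the collagen of hypertrophic chondrocytes, had no promoter interval in either list.

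Transcription factors and signalling genes were more often marked in both fractions. Sox5 with 48 reads and Nkx3-2 with 42 reads were EGFP+ only. Sox9 had 82 reads in EGFP+ and 44 in EGFP- cells, and Sox6 had 74 and 31. Trps1, Foxc1 and Mef2c were also marked in both, with 76 against 41, 76 against 23 and 37 against 17 reads. Foxa2, Foxc2 and Runx3 were unmarked at the promoter. Among 11 signalling genes of the growth plate, the receptor Fgfr3 with 58 reads and the ligands Gdf5 with 36 and Pthlh with 20 were EGFP+ only, as was the hedgehog inhibitor Hhip with 19. The hedgehog targets Gli1 and Ptch1 were marked in both, with 94 against 38 and 76 against 73 reads.

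Of 8 sclerotome genes 3 had EGFP+ only promoters, 1 was marked in both and 4 were unmarked. Of 9 perichondrium and bone genes 3 were EGFP+ only, 3 (Foxp1, Foxp2 and Sox11) marked in both, 1 EGFP- only and 2 unmarked. Pax1 with 43 reads, Pax9 with 41 and Uncx with 24, all transcription factors of the sclerotome, were EGFP+ only. In the limb lists the promoters of Pax1 and Uncx were unmarked and that of Pax9 was again EGFP+ only. Runx2 with 30 reads and Sp7 with 28, which drive osteoblast formation, were EGFP+ only, and Dlx5 was called with 11 reads. Alpl, the alkaline phosphatase of mineralizing cells, was EGFP- only with 20 reads. None of the 5 notochord genes had a promoter interval. Around the 9 perichondrium and osteoblast genes lay 29 EGFP+ only and 8 EGFP- only distal intervals.

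Markers of skeletal muscle, endothelium, blood and skin gave few promoter calls, unlike those of connective tissue and tendon. In the connective tissue and tendon list, 8 of 14 promoters were marked in both, and Dcn with 32 reads, Osr1 with 24 and Dpt with 13 were EGFP- only. These EGFP- only promoters were 21.4% of the list, against 3.31% of all genes. Col1a1, Col1a2 and Col3a1, the fibrillar collagens of bone, skin and tendon, had 42 against 50, 52 against 56 and 43 against 56 reads. Scx, a tendon factor, was EGFP+ only with 25 reads. Acta2 with 23 reads and Tagln with 19, contractile genes of smooth muscle, were EGFP- only. In the skeletal muscle list, 12 of 14 promoters were unmarked, those of Myod1, Myog, Myf5 and Pax3 included, and only Chrna1 was EGFP- only, with 15 reads. Of 11 endothelial genes 9 were unmarked, Tek was EGFP- only with 13 reads, and Erg was EGFP+ only with 50 reads. ERG is an ETS factor of endothelium that also acts in developing joint cartilage. Of the 9 red cell, 5 white cell and 9 skin genes, 8, 5 and 8 had no promoter interval.

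Ranked by -log10 p over all genes, the 10 first EGFP+ only promoters were those of Gm49322, Apc2, Rab11fip4, Ncmap, Papss2, Mia, Zfp748, Bcat1, Matn4 and Dusp13a. Of these, Gm49322, Apc2, Mia, Zfp748, Bcat1 and Dusp13a met an EGFP- interval just outside the window. With such genes left out, a choice made after the values were seen, the first 10 were Rab11fip4, Ncmap, Papss2, Matn4, Col9a1, Cbr2, Chadl, C130050O18Rik, Gm14325 and Dop1a. Rab11fip4, which acts in endosome traffic, held 88 reads and Ncmap 68. Papss2, Matn4 and Col9a1 are cartilage genes of the fixed lists, and Chadl, with 44 reads, encodes a chondroadherin-like matrix protein. In the limb, Ncmap, Col9a1, Cbr2, Chadl, C130050O18Rik and Gm14325 were EGFP+ only as well.

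The 10 first EGFP- only promoters were those of Nbeal2, Poglut3, Fam20c, Txlnb, Slc16a6, Cnih1, Chic2, Tnfaip6, Hdac7 and Rflnb, and Nbeal2, Poglut3 and Chic2 met an EGFP+ interval outside the window. Without such genes Bmal1, H2bc27 and Chrnb1 entered the first 10. Fam20c, a kinase of secreted proteins, had 45 reads, Hdac7, a histone deacetylase, 45 reads and Bmal1, a clock factor, 27. Chrnb1, a subunit of the muscle acetylcholine receptor, had 40 reads, and Txlnb, known from muscle, had 38. Txlnb and Chrnb1 were also EGFP- only in the limb, while Cnih1 was EGFP+ only there.

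Recurrence in the limb lists, which came from the same design, was counted for both sides. Of the 671 EGFP+ only promoters without an opposite interval nearby, 308 (45.9%) were EGFP+ only in the limb, 176 were marked in both limb fractions and 161 in neither. Of the 691 EGFP- only promoters, 169 (24.5%) were EGFP- only in the limb, 167 were marked in both and 260 in neither. The exact 95% intervals of the first shares were 42.1 to 49.8% and 21.3 to 27.8%, for counting error only. Over all 21581 genes, 1042 promoters were EGFP+ only and 435 EGFP- only in the limb, so these shares have unlike backgrounds. Read the other way, 30.1% of the 1042 EGFP+ only promoters of the limb and 38.9% of its 435 EGFP- only promoters had the same call in the trunk, before any gene was left out. Trunk and limb libraries ran on different lanes, and the part of each cannot be told apart.

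Sets of genes that the study found by RNA-seq in the same sorted fractions gave a related picture. They were chosen on these cells and are not independent of the sort. Of 655 genes higher in EGFP+ cells and found in the annotation, 182 (27.8%) had an EGFP+ only and 9 (1.37%) an EGFP- only promoter. Of 43 genes listed as specific to trunk chondrocytes, 14 had EGFP+ only promoters in the trunk and 5 in the limb. Of 49 listed as limb-specific, 4 were EGFP+ only in the trunk and 11 in the limb. Among the trunk-specific genes, Alx1, Foxf1, Pax1 and Prdm6, all transcription factors, Clec3a, Itgbl1 and Mgst2 were EGFP+ only in the trunk and unmarked in the limb. Alx1 had 37 reads, Foxf1 28, Clec3a 22 and Prdm6 14.

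Promoters marked in 1 fraction differed in base composition from those marked in both. The share with an observed over expected CpG of at least 0.6, from 250 bases before to 50 after the start site, was 70.4% of promoters marked in both. It was 38.7% of EGFP+ only, 38.5% of EGFP- only and 14% of unmarked promoters. The medians were 0.74, 0.475, 0.503 and 0.222. EGFP+ only and EGFP- only promoters thus lay close to each other and between the other groups.

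For the 10652 genes marked in both, heights were compared as the reads at the highest promoter summit over the library-wide background. The ratio of EGFP+ to EGFP- had a median of 1.19, with 5% of genes below 0.769 and 5% above 1.85. It was at least 2 for 366 genes (3.44%) and at most its reciprocal for 58 genes (0.544%). This imbalance moved with the centring, since ratios divided by their median gave 156 genes on the EGFP+ and 152 on the EGFP- side.

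The highest ratio of all was that of Col9a2 at 8.57, from 90 against 12 reads. Cthrc1, a secreted protein of matrix-forming cells, followed at 6.44 with 62 against 11 reads, and Vill at 6.42 with 73 against 13. Glt28d2 and Gm37240, which share a promoter interval, Il16, Slc16a3, Smad9, Mecom and Slc7a14 had ratios from 5.45 down to 4.69. Among the cartilage lists Bmpr1b had 4.25, Hapln1 4.10, Foxc1 3.78 and Col11a1 3.76, while Hdac4 had 1.21 and Ptch1 1.19. Housekeeping genes ranged from 0.92 for Tbp to 1.92 for Pgk1.

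On the EGFP- side, Selenop, a plasma selenium carrier, had the lowest ratio at 0.314, from 14 against 51 reads. Fbxo32, a ubiquitin ligase of muscle, had 8 against 29 reads and Celf2, a splicing regulator, 11 against 39. Ctsk, a protease of bone-resorbing and mesenchymal cells, had 10 against 31, and Satb1 11 against 37. Frat1, Kcnn2, Irag1, Tspan5 and Trpv1 completed the 10, with ratios from 0.332 to 0.369. Lower reads in EGFP+ cells at these promoters were thus read from summits of 8 to 14 reads, close to the lowest called.

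**Figure D2:**
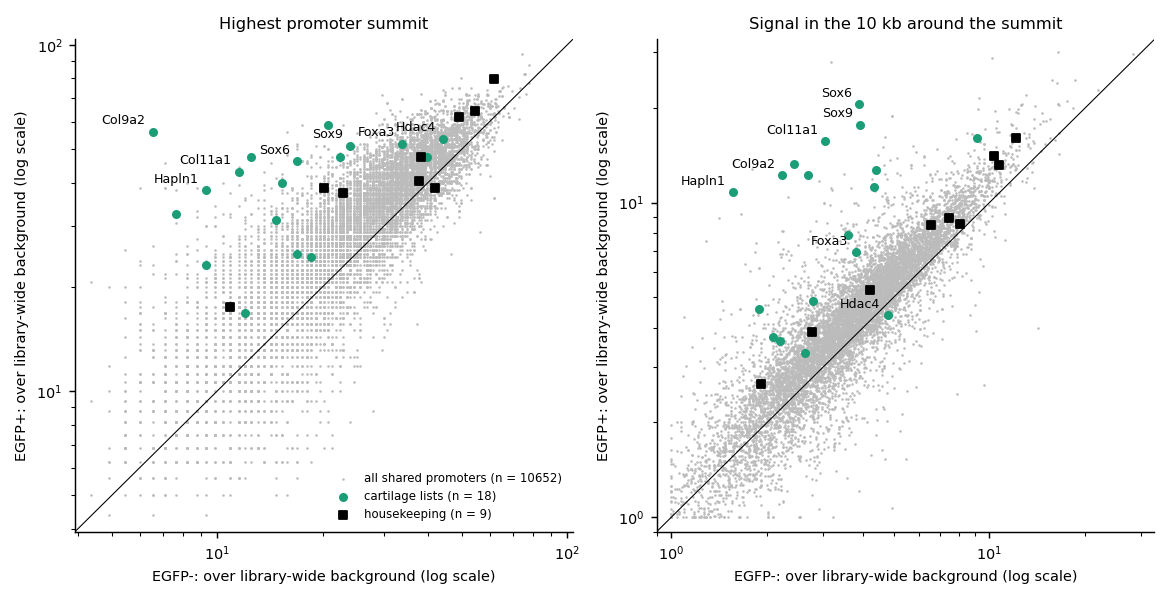
Promoters marked in both trunk fractions, EGFP+ (y axis) against EGFP- (x axis), as reads at the highest summit (left) and as signal in the surrounding 10 kb (right), each over the library-wide background on log axes, with the line of equal values. Grey points are all 10652 shared promoters, green the 18 cartilage genes and black squares the 9 housekeeping genes, and Col9a2, Hapln1, Sox6 and Sox9 lie well above the line in both plots.

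The acetylation around promoters of the same genes was compared too. The signal in the 10 kb around a summit, taken at the promoter interval where it was highest and divided by the library-wide background, had a ratio of EGFP+ to EGFP- with a median of 1.15 and a 95th percentile of 1.66. The interval was chosen in each fraction apart, so the 2 sides can lie at different start sites of a gene. This measure and its ranking were chosen after the values were seen. Wwp2, a ubiquitin ligase gene, had the highest ratio at 8.82, with 28 against 3.17 times background. At its promoter summits of highest -log10 p there were 63 and 58 reads. The fold over local background there was 7.67 and 8.65, so the 28 times background was read at another summit of its promoters. Mecom at 7.14, Hapln1 at 6.90, Vill at 6.34, Foxc1 at 5.48, Col9a2 at 5.47, Sox6 at 5.25, Col11a1 at 5.14 and Sox9 at 4.50 came next among the named genes. At the other end stood Hic1 at 0.217, a transcriptional repressor, then Trio at 0.274, Ddr1 and the laminin gene Lamb1 at 0.281, and Spry1, an inhibitor of FGF signalling, at 0.328. At Hic1 the promoter intervals of the fractions did not overlap.

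This local signal bears directly on the calls. Sox9 had 82 reads on a local background of 28.4 in EGFP+ cells and 44 reads on 7.20 in EGFP- cells, so its fold over local background was 2.83 and 5.49. Sox6 likewise had a fold of 2.78 against 4.01, and Col27a1 of 3.17 against 4.88, although the reads were higher in EGFP+ cells. When only intervals with a fold of at least 4 were kept in both lists, the 45 cartilage genes had 11 EGFP+ only and 8 EGFP- only promoters. The 8 were Col27a1, Foxc1, Hapln1, Nog, Ptch1, Sox6, Sox9 and Trps1, and each had more reads in EGFP+ cells. When both lists were held to a -log10 q of 5 or more the counts were 23 and 0, and with lists of equal length 20 and 0. At the Col2a1 promoter the EGFP+ background was 35.9 reads, 22.4 times the library-wide value, the 9th highest of 11347 promoters when ranked by this measure.

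Away from promoters the fractions shared less. Of 19295 distal EGFP+ intervals, 13335 (69.1%) met no EGFP- interval, and of 14231 distal EGFP- intervals, 8158 (57.3%) met no EGFP+ interval. With both lists cut to the same length of 30716 intervals by -log10 p, the counts were 9217 and 8751. Intervals of 1 fraction were smaller than shared ones, with median widths of 288 bp in EGFP+ and 265 bp in EGFP- cells against 454 and 396 bp, and median summits of 16 and 15 reads against 25 and 24. They lay a median of 34.3 and 33.3 kb from the nearest start site, and shared ones 18.5 and 18.2 kb. Introns held 49.3% of EGFP+ only and 47% of EGFP- only intervals. A -log10 q of at least 5 was reached by 29.7% of EGFP+ only and 20.6% of EGFP- only intervals, and 154 against 25 were wider than 1 kb.

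The strongest EGFP+ only distal intervals lay nearest to Sec61b, Cpe, Bcat1, Amotl2 and Kif21a. That of Sec61b, a subunit of the protein channel of the endoplasmic reticulum, lay 129 kb downstream of its start site with 63 reads, and that of Cpe, a carboxypeptidase, 0.755 kb downstream with 60. Those of Bcat1, Amotl2 and Kif21a had 55, 61 and 53 reads. Each of the 5 overlapped an EGFP+ interval of the limb, and the first 4 overlapped an EGFP- interval of the limb too. On the EGFP- side the 5 strongest lay nearest to Arid1a, Spry4, Col2a1, Nr4a1 and Tubg2, with 61, 52, 45, 54 and 38 reads. Those of Col2a1 and Tubg2 overlapped an EGFP- interval of the limb and no EGFP+ interval there. The others overlapped an EGFP+ interval of the limb, that of Arid1a without an EGFP- interval.

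Counted gene by gene, 1360 genes (6.3%) had at least 3 EGFP+ only and no EGFP- only distal interval within 100 kb of a start site, and are called gained. The reverse held for 335 genes (1.55%), called lost. With lists of equal length the numbers were 746 and 612. Of the 1360 gained genes, 852 (62.6%) had a promoter marked in both fractions and 390 (28.7%) had none. An EGFP+ only promoter was found for 85 (6.25%) and an EGFP- only promoter for 33 (2.43%). For the 335 lost genes the respective numbers were 190 (56.7%), 109 (32.5%), 13 (3.88%) and 23 (6.87%). Over all genes the shares were 49.4, 44.1, 3.22 and 3.31%. A gene within reach of an interval need not be its target, and neighbouring genes share intervals.

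Acan led the gained genes with 21 EGFP+ only and 0 EGFP- only distal intervals, and 0 distal intervals shared between fractions. Within 100 kb of its canonical start site lay 18 of them, from 99.5 kb upstream to 63.3 kb downstream, and the others within 100 kb of another start site. The strongest, at 80.8 kb upstream, had 61 reads. The interval at 81.5 kb upstream, with 57 reads, holds the pair of SOX letters shown above. Tiam2, which activates the GTPase RAC, had 16 such intervals, Psmd7 15, and Fam180a, Slc13a4 and Snx18 13 each, the first 2 from the same intervals. Foxl1, a forkhead factor, Hapln3, Limd1, Sacm1l and Svopl had 12 each. Hapln3 lies next to Acan, and Limd1 and Sacm1l share theirs. The 15 intervals counted for Psmd7 lie beside Wwp2, which had 20 EGFP+ only and 1 EGFP- only intervals.

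Lost genes had fewer intervals. Vcam1, a cell adhesion molecule, had 9 EGFP- only and 0 EGFP+ only distal intervals in the trunk and 10 against 1 in the limb. Its promoter was marked in both fractions with 22 reads in EGFP+ and 26 in EGFP- cells. Atp13a3, Epb41l4a, Nav3 and Spin1 had 7 each. Adamts2, which trims the ends of fibrillar procollagen, Gp5, Gtdc1, Ndufv3, Wdr4, Prickle2 and the agouti gene (symbol a) had 6 each, with Ndufv3 and Wdr4 sharing theirs. Of the gained genes 417 (30.7%) were also gained in the limb, 28.8% of the 1449 gained there, and of the lost genes 60 (17.9%) were also lost in the limb, 13.4% of 449. The 1449 and 449 are out of all 21581 genes, so the shares of 30.7% and 17.9% have unlike backgrounds.

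Cartilage genes carried many EGFP+ only distal intervals. Over the 45 genes of the cartilage lists there were 276 EGFP+ only and 29 EGFP- only intervals, a median of 6.0 and 0.0 a gene, against 1.0 and 0.0 over all genes. EGFP+ only intervals were the more numerous at 42 of the 45 genes, and at 7906 of all 21581. By this rule 17 of them were gained and 1 was lost, Foxa3 with 3 EGFP- only intervals. Sox5 and Sox6 had 14 EGFP+ only intervals each, Runx3 13, Col27a1 12, and Foxc2 and Gdf5 10 each. Runx3, Foxc2, Ucma and Ihh were unmarked at the promoter in the trunk but had 13, 10, 5 and 6 EGFP+ only distal intervals. Col10a1 and Gli1 had 0 EGFP+ only and 1 EGFP- only interval each.

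**Figure D3:**
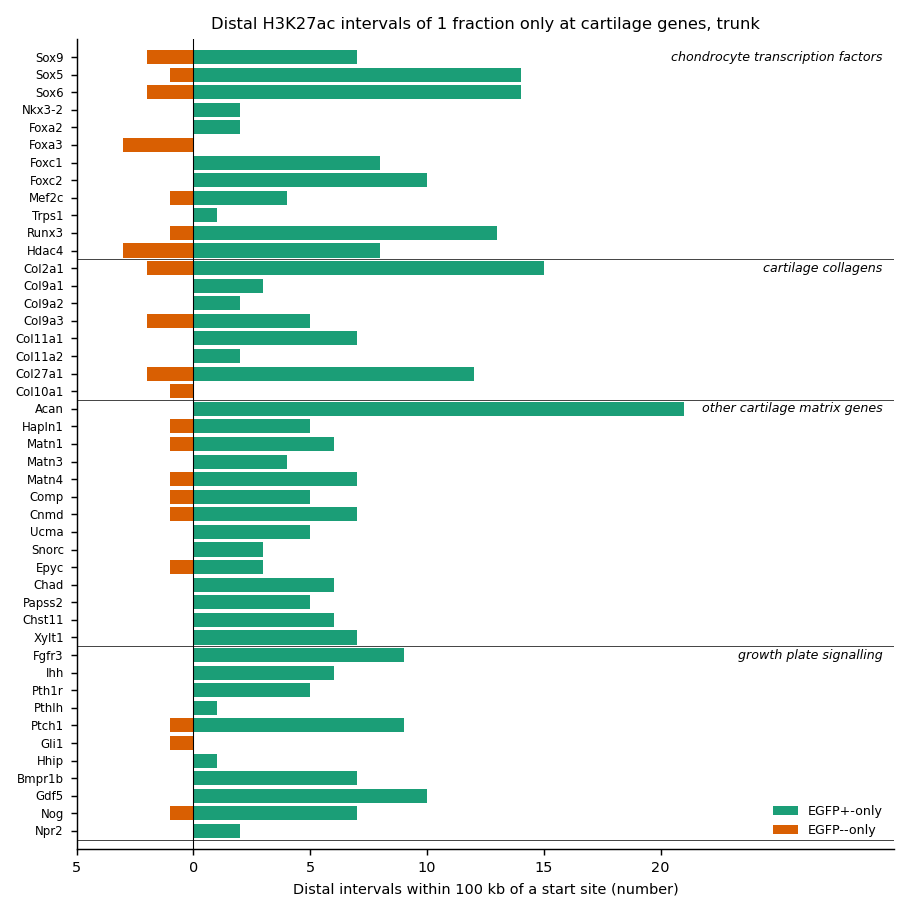
Distal intervals found in 1 trunk fraction within 100 kb of each of the 45 cartilage genes, grouped by list. Green bars to the right count EGFP+ only and orange bars to the left EGFP- only intervals (x axis, number of intervals), and Acan reaches 21 while no gene has more than 3 to the left.

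Other lists were more even. Over all genes there were means of 1.38 EGFP+ only and 0.858 EGFP- only intervals a gene. The connective tissue and tendon list had 34 EGFP+ only and 31 EGFP- only distal intervals, with 5 against 6 at Col1a1, 7 against 5 at Col1a2 and 9 against 3 at Twist2. The skeletal muscle list had 29 and 25, where Myod1, the muscle determination factor, had 4 EGFP- only and 0 EGFP+ only intervals. These lay between 60.8 kb upstream and 1.0 kb downstream, and the strongest had 18 reads. Tnnt3, a troponin of muscle, had 9 EGFP+ only and 3 EGFP- only intervals. The endothelial list had 30 against 8, of which Erg alone held 21 and 2. Without Erg, no endothelial gene had more than 2 EGFP+ only intervals. Sclerotome factors had 18 against 10, with 6 EGFP+ only and 1 EGFP- only interval at Uncx, 4 and 0 at Pax9, and 4 and 6 at Meox1. With lists of equal length the counts were 27 against 35 for connective tissue and tendon, 22 against 25 for skeletal muscle, 27 against 8 for endothelium and 10 against 10 for sclerotome.

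Some genes outside the lists stood out by the difference of the 2 counts, a ranking added after the values were seen. Aopep had 38 EGFP+ only and 9 EGFP- only intervals, Mecom 21 and 2, and Pkdcc, a secreted kinase needed for bone growth, 15 and 1 with an EGFP- only promoter. In the opposite direction Tead1, a factor of the Hippo pathway, had 1 EGFP+ only and 14 EGFP- only, its neighbour Parva 1 and 12, the laminin gene Lamc1 1 and 11, Spry1 1 and 10, and Col6a1, a collagen of connective tissue, 1 and 9. In the limb the same pair of counts was 2 and 12 for Tead1, 1 and 13 for Lamc1 and 1 and 13 for Spry1.

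The Col2a1 locus held intervals called in either fraction alone. EGFP+ cells had 15 EGFP+ only distal intervals within 100 kb. Of these, 12 lay between 4.5 and 45.9 kb upstream, the one shown above included, with 22 to 60 reads and -log10 p from 3.36 to 18.4. EGFP- cells had an interval in an intron 11.9 kb downstream of the start site with 45 reads and a -log10 p of 23.8, and a weaker one beside it at 11.4 kb with 17 reads. An interval 2.9 kb downstream was shared, with 88 reads in EGFP+ and 11 in EGFP- cells. The background beside it was 38.8 reads in EGFP+ and 3.06 in EGFP- cells. The EGFP- interval at 11.9 kb is the third strongest of the EGFP- only distal intervals. The EGFP+ background at 11.9 kb is not known, because no EGFP+ interval was called there. At a background of 35 reads a call in EGFP+ cells took 56 reads, so as many reads as in EGFP- cells could go uncalled.

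**Figure D4:**
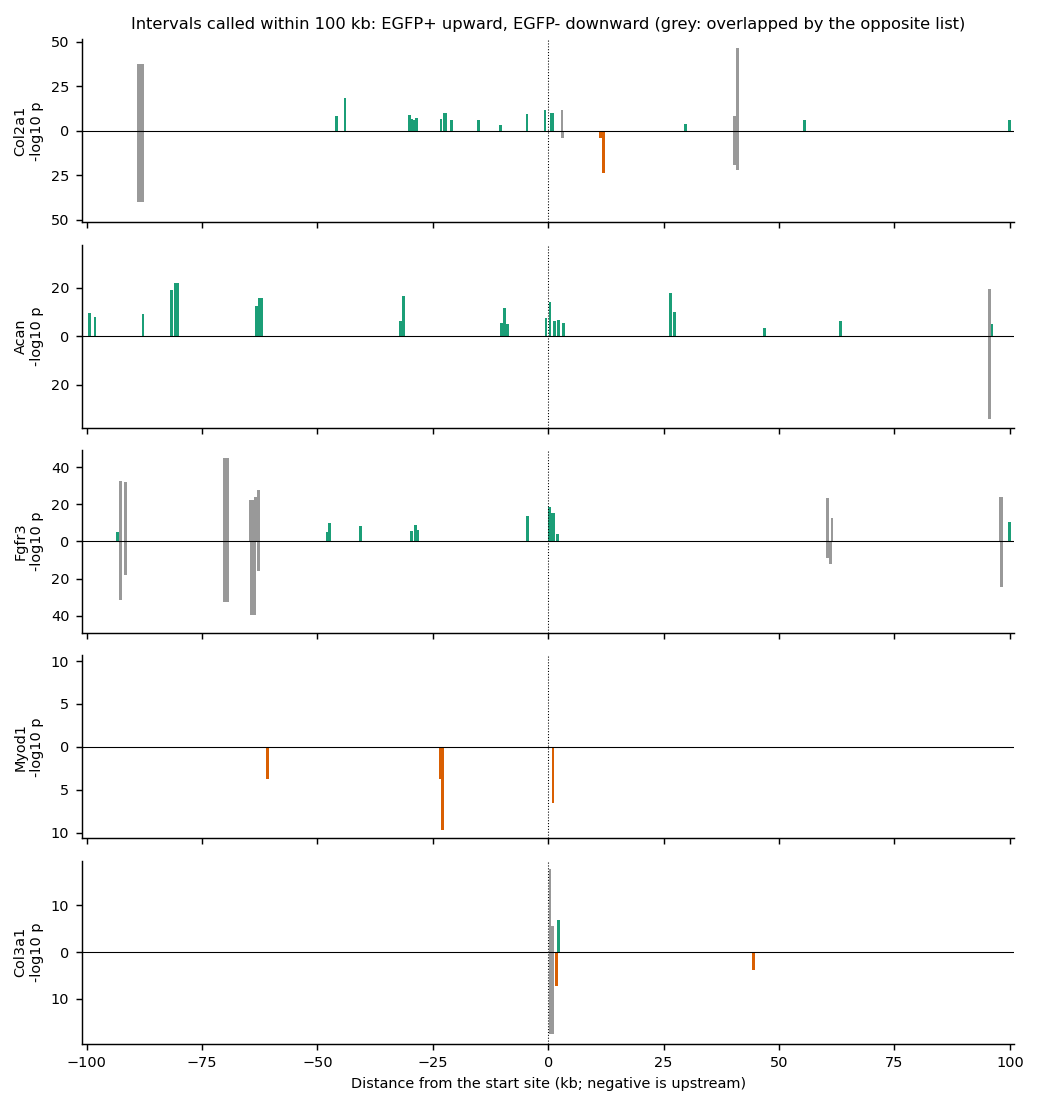
Intervals called within 100 kb of 5 genes, by distance from the start site (x axis, kb, negative upstream), with -log10 p as the height (y axis), EGFP+ upward and EGFP- downward. Grey bars meet an interval of the opposite list, green are EGFP+ only and orange EGFP- only. Distances are from the canonical start site. Acan shows 18 EGFP+ only distal intervals with no orange bar, Myod1 shows 4 downward and none upward, and Col2a1 has its orange bar at 11.9 kb.

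Short motifs, 9 in all, were searched on both strands in the 201 bases around each distal summit. The SOX letters ACAANG were in 35.6% (95% interval 34.8 to 36.4%) of EGFP+ only, 37.5% (36.5 to 38.6%) of EGFP- only and 34.5 and 34.2% of shared EGFP+ and EGFP- intervals. None of the 4 EGFP+ windows printed above held them. They lie elsewhere in the intervals of Sox9, Acan and Pax1, which hold 3, 4 and 2 matches. The RUNX letters TGTGGT were in 15.3% (14.7 to 15.9%) of EGFP+ only and 13.8% (13.1 to 14.6%) of EGFP- only intervals, against 11.2 and 12% of the shared ones. The E-box CAGCTG, read by muscle factors among others, was in 13.5% (12.9 to 14.1%) of EGFP+ only and 16.8% (16 to 17.6%) of EGFP- only intervals, against 14.9 and 15.2%. In windows of 501 bases, an alternative added later, the E-box shares were 29 and 37.5%.

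The inverted pair of SOX letters was rare. In the 501 bases around the summit it was found for 83 (0.622%, 0.496 to 0.771%) EGFP+ only and 21 (0.257%, 0.159 to 0.393%) EGFP- only intervals, and for 0.235 and 0.379% of the shared EGFP+ and EGFP- ones. In 201 bases it was found for 18 (0.135%) and 9 (0.11%), so the difference lay in letters farther than 100 bases from the summit. The intervals cover counting error only. The letters of the single site are part of the pair, so the searches overlap. GC content around the summit had medians of 49.8 and 50.2% in EGFP+ only and EGFP- only intervals and 53.7% in both shared sets.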

How the data were processed

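H3K27ac ChIP-seq peak lists of 4 sorted populations were used, 1 library each. The authors sampled equal read numbers with Seqtk, trimmed with cutadapt 1.18, mapped to GRCm39 with Bowtie2 2.3.5.1, filtered with SAMtools and called summits per library with MACS2 2.2.7.1 on reads extended to 200 bp, with no control library named in the sources used here. As deposited, the fold is a ratio, summit reads plus 1 over local background plus 1. The authors' lists also give a Poisson -log10 p and its adjusted form, -log10 q, of which the lowest was 1.3. Read lengths and sonicators are not assigned to libraries in the sources used here, and cannot be told apart from the groups. The peak names of the trunk EGFP- list say replicate 2, and the sample label, replicate 1, was used.

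Rows that shared both ends made 1 interval. A promoter was the window of 2 kb before and 500 bp after any of 67388 start sites of 21581 protein-coding genes (GENCODE, GRCm39), and intervals that missed every window were distal. An overlap was at least 1 bp. Reads at each summit were recovered from fold and -log10 p within a tolerance of 0.01 in -log10 p. With 1 library a side, no test was made. The members, lists and rules were chosen with earlier results of these data known. Named were members of the 17 lists, the first 10 promoters, genes gained or lost and shared promoters each way, and the first 5 distal intervals each way. Alternatives were thresholds, list lengths, windows and overlap rules, and later merging within 500 bp, window-edge intervals and 501-base motif windows. Exact binomial limits (95%) hold for counting error. The calls were tested on simulated data. Scripts ran in Python 3.11.15 with pandas 2.3.3, scipy 1.17.1, numpy 2.4.6 and matplotlib 3.10.9.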

Additional observations from a re-analysis of the deposited data

Results flagged for a closer look

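Some calls went opposite ways in the trunk and the limb, where the limb lists came from the same design. Of the 695 promoters that were EGFP+ only in the trunk, 26 (3.74%) were EGFP- only in the limb. They were led by Rin3 with 37 reads in trunk EGFP+ cells and Ndnf with 28, and included Gata3 with 11. The reverse held for 100 of the 715 EGFP- only promoters (14%). These were led by Cnih1 with 45 reads in trunk EGFP- cells, Lrig3 with 60 and Garem1 with 28, and included Pkdcc with 34. Over all 21581 genes, 435 promoters were EGFP- only and 1042 EGFP+ only in the limb. Trunk reads went down to 7 (Osbp2) in the first set and 8 (Pcdhgb6) in the second, the lowest called. Around genes, the limb had 1449 gained and 449 lost. Of the 1360 genes gained in the trunk, 4 (0.294%) were lost in the limb, namely Cib1, Gdpgp1, Sema4b and Kcnc4. Each had 3 EGFP+ only distal intervals in the trunk and 3 EGFP- only in the limb. The first 3 are neighbours. Of the 335 genes lost in the trunk, 14 (4.18%) were gained in the limb. They included Dlx3 and Dlx4, homeobox factors that are neighbours, with 3 and 4 EGFP- only intervals in the trunk and 3 EGFP+ only in the limb, and Foxa3, Six5 and Dmpk. Dmpk and its neighbour Dmwd, also among the 14, were counted from the same trunk intervals. Foxa3 and Sympk, also among them, had the same promoter reads, 83 in EGFP+ and 62 in EGFP- cells. The 14 genes are thus fewer than 14 separate loci. With 1 library a population, the difference between the tissues was not tested.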

How the results depend on the processing

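No paired analysis was possible because each fraction has 1 library, so the replicate number of the sample labels pairs nothing that could be fitted. Of 76 values under the alternatives, 43 stayed within 1.5 times and 33 moved. For EGFP+ only and EGFP- only distal intervals the counts were 5046 and 2393 with both lists held to a -log10 q of 5 or more, 3955 and 1677 with that limit on the interval counted alone, 3424 and 3040 for the first 20000 intervals of each list, and 4778 and 2586 at a fold of at least 4. Under the same 4 settings gained and lost genes numbered 751 and 78, 622 and 40, 335 and 183, and 451 and 80. They were 746 and 612 with lists of equal length, 478 and 131 by the nearest start site, 808 and 199 within 50 kb, and 4605 and 2744 with at least 1 interval. Gained genes numbered 785 within 500 kb, with 224 lost. Promoters with the limit on the interval counted alone were 345 EGFP+ only and 321 EGFP- only. Shared promoters at least 2 times higher in EGFP+ or EGFP- cells were 231 and 14 at a -log10 q of at least 5, 27 and 9 by fold over local background, and 156 and 152 after centring on the median. At a fold of at least 4 the promoter counts were 854 EGFP+ only and 667 EGFP- only. The cause was not tested. EGFP+ only outnumbered EGFP- only distal intervals, and gained outnumbered lost genes, under every alternative run, but EGFP- only promoters were the more numerous in the values reported, with autosomes alone, for the first 20000 intervals, with equal lengths, with canonical transcripts, with 1 kb windows and without window-edge intervals. A summit needs at least 7 or 8 reads to be listed, so weaker marks were not detectable.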

Other observations

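Lists of cell types other than cartilage and mesenchyme gave few marked promoters. Of 13 genes of neurons and spinal cord, 10 were unmarked, Isl1, a motor neuron factor, was EGFP+ only with 17 reads and Tubb3, a neuronal tubulin, EGFP- only with 12. Of 6 glia and neural crest genes, the receptors Erbb3 with 27 reads and Ednrb with 11 were EGFP- only. Distal intervals of 1 fraction, EGFP+ only against EGFP- only, numbered 9 and 3 around the neuron genes, 8 and 4 around the glia genes and 9 and 4 around the pericyte and smooth muscle genes. They were 9 and 3 around the white cell, 5 and 9 around the red cell, 10 and 8 around the skin, 2 and 3 around the notochord and 18 and 13 around the housekeeping genes. Over all genes the means were 1.38 and 0.858 a gene, and the neuron list lay below both, at 0.692 and 0.231. With lists of equal length the order turned for glia (3 and 5), skin (7 and 8) and housekeeping genes (10 and 16).

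The Hox genes, which set position along the body axis, were examined after the values were seen. Of 39 Hox promoters, 17 were marked in both trunk fractions and 17 in neither. Hoxa5, Hoxb9, Hoxd3 and Hoxd8 were EGFP- only, Hoxd3 with a -log10 p of 14.6, and Hoxc11 was EGFP+ only with 5.28. At the 17 promoters marked in both, the ratio of EGFP+ to EGFP- summit height lay between 0.605 for Hoxb3 and 3.1 for Hoxa11.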
